A study of Mus musculus with 12 samples.

Results

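The guanylate binding proteins (Gbp genes) were followed in mouse skin wounds treated with capsaicin (CAP). The family was taken by gene name as the 10 genes Gbp2, Gbp3, Gbp4, Gbp5, Gbp6, Gbp7, Gbp8, Gbp9, Gbp10 and Gbp11, which are 10 of the 55487 genes in each deposited table. The study wounded male C57BL/6JNarl mice, 6 weeks old, with full-thickness punch biopsies on the back and sequenced RNA from the wound with the tissue around it. The 4 groups held 3 libraries each: wounds given Pluronic F127 gel alone every day (sham group) and wounds given 10 µM CAP in the same gel (CAP-treated wounds), at day 3 and at day 6 after wounding. Sham wounds therefore carried the gel and the dressing too, and unwounded skin was not analysed here. Each mouse bore a pair of wounds, and the sources used here do not say which libraries came from separate mice, so the p-values measure only the spread between libraries.

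Guanylate binding proteins are large GTPases of the dynamin superfamily that cells make after exposure to interferon, above all interferon-gamma. They assemble on the membranes of vacuoles that hold intracellular pathogens and on bacteria in the cytosol, where they open these compartments and help to start inflammasome signalling. In skin, keratinocytes, endothelial cells, fibroblasts and infiltrating macrophages can all make them once interferon is present. Bulk tissue cannot tell fewer cells of such a type from less RNA per cell.

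The members lie in 2 clusters of the mouse genome (build GRCm38, GENCODE M21). Gbp5, Gbp7, Gbp3 and Gbp2 follow each other on the + strand of chromosome 3 over 144.0 kb (chr3:142493978-142638008). On the - strand of chromosome 5, Gbp8, Gbp9, Gbp4, Gbp10, Gbp6 and Gbp11 take up 332.3 kb (chr5:105014150-105346472). Gbp11 is annotated as a polymorphic pseudogene and the other 9 as protein-coding genes. The copies differ in how far their RNA can be told apart. Of the 31-base stretches in the transcripts of Gbp10, 89.8% also occur in transcripts of other genes and 80.8% in those of Gbp6, and for Gbp6 the share found in other genes is 74.3%. On chromosome 3 the shares are low, at 3.10% for Gbp5, 4.85% for Gbp2, 5.64% for Gbp3 and 14.7% for Gbp7. The remaining chromosome 5 members fall between, from 14.9% for Gbp4 to 34.3% for Gbp11. Gm43302, a gene model whose exons overlap 1726 exonic bases of Gbp6 and 1792 of Gbp10 on the same strand, has no 31-base stretch of its own. Values of Gbp6 and Gbp10 are therefore uncertain, because the division of reads among these 3 genes can set them.

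**Figure D1:**
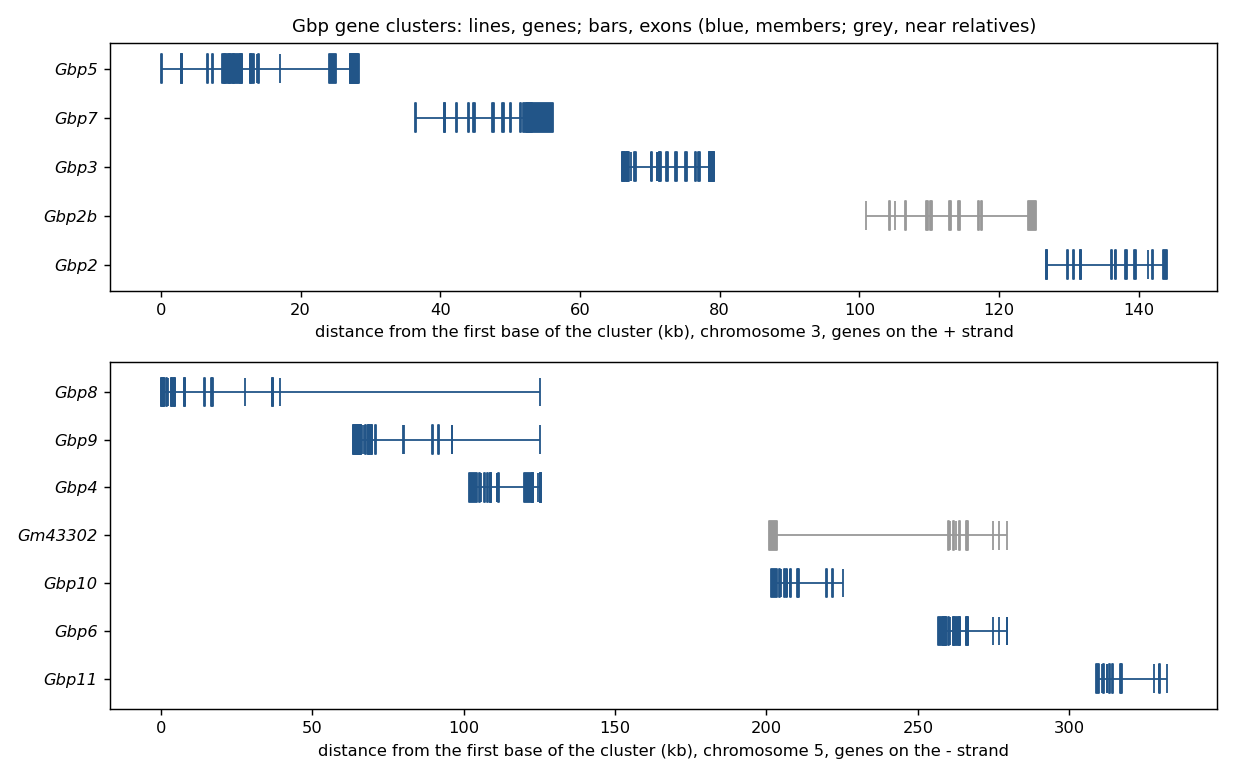
Map of the Gbp clusters on chromosome 3 (top) and chromosome 5 (bottom), with distance from the first base of the cluster in kb on the horizontal axis; lines are genes and bars are exons, blue for the 10 members and grey for Gbp2b and Gm43302. Gm43302 spans both Gbp10 and Gbp6. On this - strand the long gene models of Gbp8 and Gbp9 start at their right ends, where their first exon overlaps that of Gbp4.

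Interferon acts on such genes through 2 well-known promoter elements, the interferon-stimulated response element, which interferon regulatory factors bind, and the gamma-activated site, through which interferon-gamma acts. The RefSeq promoter table (GRCm38.p6) held 250-base windows before the start of 4 members, Gbp2, Gbp3, Gbp5 and Gbp7. It held none for Gbp4, Gbp6, Gbp8, Gbp9, Gbp10 and Gbp11. The stretches below are shown because each carries a match to a response-element-like run of letters, GAAA, any 2 bases and GAAA, searched on both strands. They read 5′ to 3′ on the + strand of chromosome 3, the strand of the genes, and capitals mark the match, which lies on the opposite strand in each. For Gbp3 the capitals cover 2 matches that overlap.
Gbp2, chr3:142620413-142620613, intergenic except for the last 12 bases, which GENCODE places in the first exon: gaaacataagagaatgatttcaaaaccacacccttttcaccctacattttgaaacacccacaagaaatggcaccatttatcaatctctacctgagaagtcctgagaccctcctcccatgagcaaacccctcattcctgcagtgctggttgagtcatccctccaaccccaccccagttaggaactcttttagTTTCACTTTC
Gbp3, chr3:142559794-142560025, intergenic, ending at the base before the first exon: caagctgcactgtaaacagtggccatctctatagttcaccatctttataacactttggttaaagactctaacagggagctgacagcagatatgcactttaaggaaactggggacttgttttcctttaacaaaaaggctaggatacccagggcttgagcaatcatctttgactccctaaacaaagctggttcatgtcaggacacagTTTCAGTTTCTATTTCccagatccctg
Gbp5, chr3:142496684-142496899, within an intron of the longest gene model and ending at the base before an exon: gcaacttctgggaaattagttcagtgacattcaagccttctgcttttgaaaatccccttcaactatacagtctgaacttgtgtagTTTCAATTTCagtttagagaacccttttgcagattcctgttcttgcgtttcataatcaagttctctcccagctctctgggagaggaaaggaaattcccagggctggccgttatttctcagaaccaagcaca
Gbp7, chr3:142530086-142530335, intergenic: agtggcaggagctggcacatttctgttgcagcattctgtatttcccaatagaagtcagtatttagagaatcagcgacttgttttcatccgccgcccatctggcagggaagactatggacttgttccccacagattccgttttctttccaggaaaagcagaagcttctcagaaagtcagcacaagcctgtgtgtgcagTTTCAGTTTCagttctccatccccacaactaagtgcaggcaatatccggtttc
The match began 59 bases before the RefSeq start in Gbp2, 53 in Gbp7 and 165 in Gbp5, and the 2 matches of Gbp3 began 45 and 39 bases before it. Of 32851 mouse promoter windows of the same length, 2.98% held such a match. A gamma-activated-site-like run, TTC, any 3 bases and GAA, which reads the same on either strand, occurred in 7.02% of the windows and at 2 places each in Gbp5 and Gbp7, 245 and 52 bases before the start of Gbp5 and 106 and 87 bases before that of Gbp7. Both runs of letters were found together in 0.332% of all windows. A second Gbp3 window, for another start, held neither. These matches describe letters in a window and are neither binding sites nor causes.

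TPM is a share of all transcripts in a library corrected for gene length, so levels of different genes can be compared on it, but read depth cannot be told from it, and neither can counting error. From 18533 to 19325 genes were at 0.3 TPM or above in a library, and mitochondrial genes held 5.21% to 6.56% of the TPM. The keratin genes Krt5 and Krt14 and the collagen gene Col1a1 were at 2704 TPM or more in every library. Replicate 2 of the CAP-treated wounds at day 6 stood apart. Its summed keratinocyte markers reached 89956 TPM, against 22981 to 59620 TPM in the other 11 libraries, and its summed endothelial and neutrophil markers were the lowest of the 12, at 82.1 and 354 TPM. Counts that compare day 6 libraries are therefore given also without it, which for the lists other than the Gbp genes was added after seeing the data.

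The family held a stable order of abundance. Gbp2 was the most abundant member in each group, followed by Gbp3, Gbp7 and Gbp9, and Gbp11 was the least. Gbp2 averaged 30.0 ± 1.29 TPM (mean ± SD, n = 3) in the sham group at day 3 and Gbp3 29.1 ± 2.51 TPM, and these neighbours overlapped. Gbp7 came next with 16.0 ± 3.78 TPM and Gbp9 with 9.72 ± 0.487 TPM, each set apart from its neighbour in every library. Gbp6 (7.11 ± 0.978 TPM) and Gbp5 (6.74 ± 0.367 TPM) overlapped, as did Gbp4 (2.78 ± 0.487 TPM) and Gbp10 (2.09 ± 0.434 TPM). Gbp8 lay at 1.63 ± 0.0914 TPM. Gbp11 lay between 0.216 and 0.461 TPM in these libraries, was listed at 0 in 1 CAP library of day 3, and did not reach a mean of 0.3 TPM in any other group. The relative Gbp2b stayed at or under 0.137 TPM throughout. In 3 of the 4 groups Gm43302 was listed at 0 in at least 1 library and above 0 in another, at up to 1.95 TPM.

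Across the 4 groups, 7 of the 10 members shared the order sham at day 3, sham at day 6, CAP at day 6 and CAP at day 3, from the highest mean to the lowest. For 9 of 10, both sham means lay above both CAP means. Gbp4 was highest in the sham group at day 6, Gbp6 was lowest in CAP-treated wounds at day 6, and Gbp11 at day 6 was higher with CAP than in the sham group. Summed over the family, sham libraries held 112, 101 and 103 TPM at day 3 and 92.2, 83.9 and 81.3 TPM at day 6. CAP libraries held 73.7, 40.7 and 47.4 TPM at day 3 and 77.3, 42.3 and 56.4 TPM at day 6. All 6 CAP libraries lay below all 6 sham libraries in this sum, and replicate 1 was the highest CAP library at each day.

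**Figure D2:**
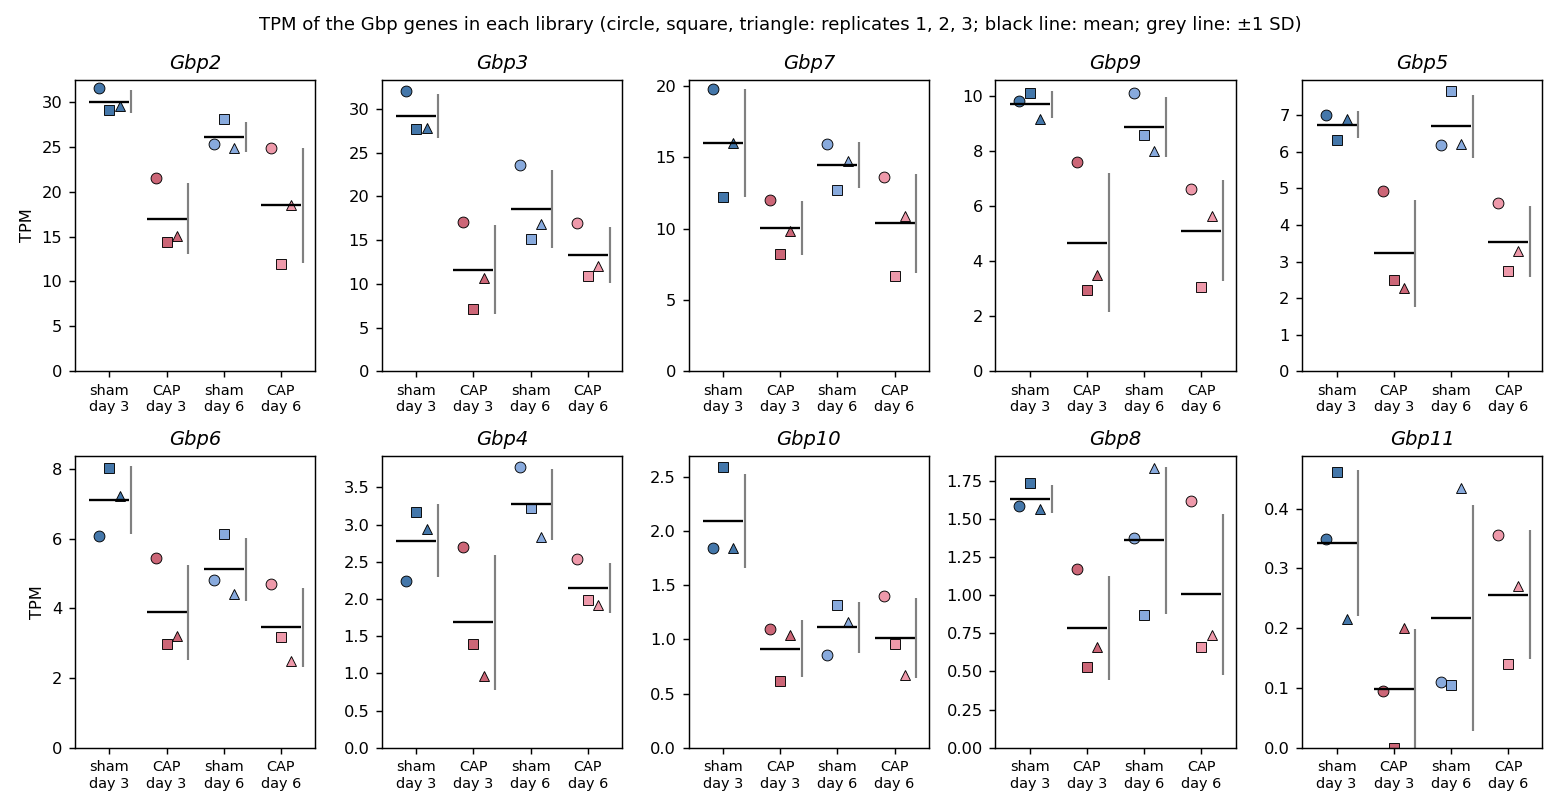
TPM of each Gbp gene in the 12 libraries (vertical axis, linear and from 0, with its own scale per gene; horizontal axis, the 4 groups). Circles, squares and triangles are replicates 1, 2 and 3, black lines are means and grey lines ±1 SD; for Gbp5 the 3 CAP libraries of each day sit at 2.27 to 4.92 TPM, below the 6.197 to 7.67 TPM of the sham libraries.

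At day 6, the question was whether the family still differed between CAP-treated and sham wounds. All 9 members that averaged 0.3 TPM or more in each group were lower in mean with CAP, but the gaps were smaller than 2-fold and overlapped for 5 of the 9. Gbp5, which promotes assembly of the NLRP3 inflammasome, showed the widest gap. It measured 6.197, 7.67 and 6.21 TPM in the sham libraries and 4.61, 2.74 and 3.28 TPM in the CAP libraries. Every CAP library lay below every sham library, and the mean was 47.0% lower (log2 difference -0.92, SE 0.23, Benjamini-Hochberg adjusted p = 0.206 by limma). Gbp9 measured 10.1, 8.59 and 8.0 TPM in the sham group and 6.62, 3.07 and 5.64 TPM with CAP. These groups did not overlap either, and the mean was 42.6% lower (log2 difference -0.85, SE 0.29, adjusted p = 0.226). Gbp4 gave 3.77, 3.22 and 2.83 TPM against 2.53, 1.99 and 1.92 TPM, again without overlap (log2 difference -0.59, SE 0.22, adjusted p = 0.234).

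Gbp2, a prenylated member recruited to pathogen vacuoles, gave 25.3, 28.0 and 24.88 TPM in the sham group and 24.87, 11.97 and 18.5 TPM with CAP. The groups were separated only by the last digit, since replicate 1 of the CAP-treated wounds reached the sham level while replicate 2 was less abundant than any other library. The log2 difference of -0.56 (SE 0.25) did not pass (adjusted p = 0.279). Gbp3 gave 23.6, 15.2 and 16.8 TPM against 17.0, 10.9 and 12 TPM. Here the sham replicate 1 was high and the CAP replicate 1 lay within the sham range (log2 difference -0.47, SE 0.23, adjusted p = 0.298). Gbp7, a member known from resistance to intracellular parasites, gave 16.0, 12.7 and 14.7 TPM against 13.6, 6.67 and 10.9 TPM, with 1 CAP library inside the sham range (log2 difference -0.53, SE 0.26, adjusted p = 0.306).

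Gbp6 gave 4.82, 6.15 and 4.41 TPM in the sham group and 4.70, 3.19 and 2.48 TPM in CAP-treated wounds (log2 difference -0.59, SE 0.27, adjusted p = 0.282). Gbp8 gave 1.38, 0.871 and 1.83 TPM against 1.61, 0.657 and 0.741 TPM, so that the spread within each group was as wide as the gap between them (adjusted p = 0.575). Gbp10 gave 0.858, 1.32 and 1.16 TPM against 1.40, 0.960 and 0.673 TPM. Its groups lay across each other, and its log2 difference was -0.16, with a 95% interval from -0.98 to 0.66. With the TPM of Gbp6, Gbp10 and Gm43302 summed, an alternative chosen after seeing the data, the log2 difference of the locus was -0.41 (SE 0.26, adjusted p = 0.399). Gbp11 was not tested and gave 0.111, 0.105 and 0.435 TPM against 0.356, 0.141 and 0.271 TPM.

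A gene counts here as past the threshold at an unadjusted limma p under 0.05 and a change of at least 2-fold on the log2(TPM + 0.1) scale. None of the 9 members passed it at day 6, where 2.34% of all tested genes were past it and lower. At an unadjusted p under 0.05, 3 of 9 members were lower (Gbp4, Gbp5 and Gbp9), against 12.5% of all genes, and 4 of 9 lay wholly below the sham libraries, against 18.0%. No gene of the 18323 reached an adjusted p under 0.05. All 9 members were lower in sign, and 65.7% of all genes were lower. Gbp10 turned to 0.0033 under quantile normalization and to 0.078 without CAP replicate 3. The members' median log2 difference was -0.56 and that of all genes -0.12. Median-ratio scaling moved the median of all genes to -0.01 and the members' to -0.44, so relative to all genes the members stood at -0.44 before and -0.43 after it. That scaling also moved the share of lower genes among all genes past the threshold from 61.5% to 41.8%. An exact permutation test of 3 against 3 libraries cannot go below 0.1. Gbp2, Gbp4, Gbp5 and Gbp9 each reached that value, as any gene without overlap between the groups does.

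The day 6 result depended on replicate 1 of the CAP-treated wounds, which was the highest CAP library of day 6 in all 10 members and lay above every sham library in Gbp10. Without it, Gbp5 (log2 difference -1.13) and Gbp9 (-1.07) passed the threshold, where 3.01% of all genes passed and were lower, and the median of the 9 members was -0.80. Without replicate 2, the library that stood apart, no member passed, where 0.931% of all genes passed and were lower, and the median was -0.35. In that setting 2 of 9 members were lower at an unadjusted p under 0.05 by limma, against 7.81% of all genes. The number of all genes past the threshold in either direction was 697 with all libraries, 311 without replicate 2, 802 without replicate 1 and 1483 without replicate 3.

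At day 3 the same comparison gave wider gaps. Gbp3 measured 32.0, 27.6 and 27.8 TPM in the sham group and 17.1, 7.09 and 10.7 TPM in CAP-treated wounds, a mean 60.1% lower and the largest fall of the tested members (log2 difference -1.41, SE 0.30, adjusted p = 0.50). Gbp5 measured 6.998, 6.32 and 6.91 TPM against 4.92, 2.49 and 2.27 TPM (log2 difference -1.13, SE 0.29, adjusted p = 0.539). Both had every CAP library below every sham library. Gbp2 measured 31.5, 29.1 and 29.5 TPM against 21.6, 14.4 and 15.1 TPM, without overlap, but its log2 difference of -0.84 (SE 0.16, adjusted p = 0.50) was under 2-fold. The difference was also under 2-fold for Gbp7, at 19.8, 12.2 and 16.0 TPM against 12, 8.26 and 9.84 TPM (log2 difference -0.66). Gbp6, at 6.08, 8.02 and 7.23 TPM against 5.45, 2.99 and 3.21 TPM, differed by -0.90 on that scale. Gbp4 was the exception, with 2.24, 3.17 and 2.94 TPM against 2.70, 1.40 and 0.961 TPM, since CAP replicate 1 lay inside the sham range (log2 difference -0.79, adjusted p = 0.795). Gbp8 spanned 1.56 to 1.73 TPM against 0.527 to 1.17 TPM, Gbp9 9.18 to 10.1 against 2.95 to 7.61 TPM, and Gbp10 1.84 to 2.60 against 0.613 to 1.10 TPM. They differed by -1.03, -1.16 and -1.13 on the log2 scale, without overlap.

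In all, 5 of 9 tested members (Gbp3, Gbp5, Gbp8, Gbp9 and Gbp10) were past the threshold at day 3 and lower, against 1.16% of 18330 genes. None of the 9 had an adjusted p under 0.05, the values running from 0.50 to 0.795. By limma, 8 of 9 were lower at an unadjusted p under 0.05, against 5.14% of all genes, and 8 of 9 lay wholly below the sham group, against 8.75%. All 9 were lower in sign, as were 62.2% of all genes. The members' median was -1.03 and that of all genes -0.05. Single libraries decided which members passed. Without CAP replicate 2 only Gbp3 passed, where 0.813% of all genes passed and were lower. Without CAP replicate 1 there were 8, where 1.97% of all genes did. Without CAP replicate 3 or sham replicate 2 there were 3, where 1.29% and 1.27% did. Gbp3 passed in each of these settings. With the TPM of overlapping genes summed, Gbp6 with Gbp10 and Gm43302 differed by -1.08 (SE 0.20, adjusted p = 0.497) and Gbp4 with Gbp8 and Gbp9 by -1.09 (SE 0.32, adjusted p = 0.611).

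**Figure D3:**
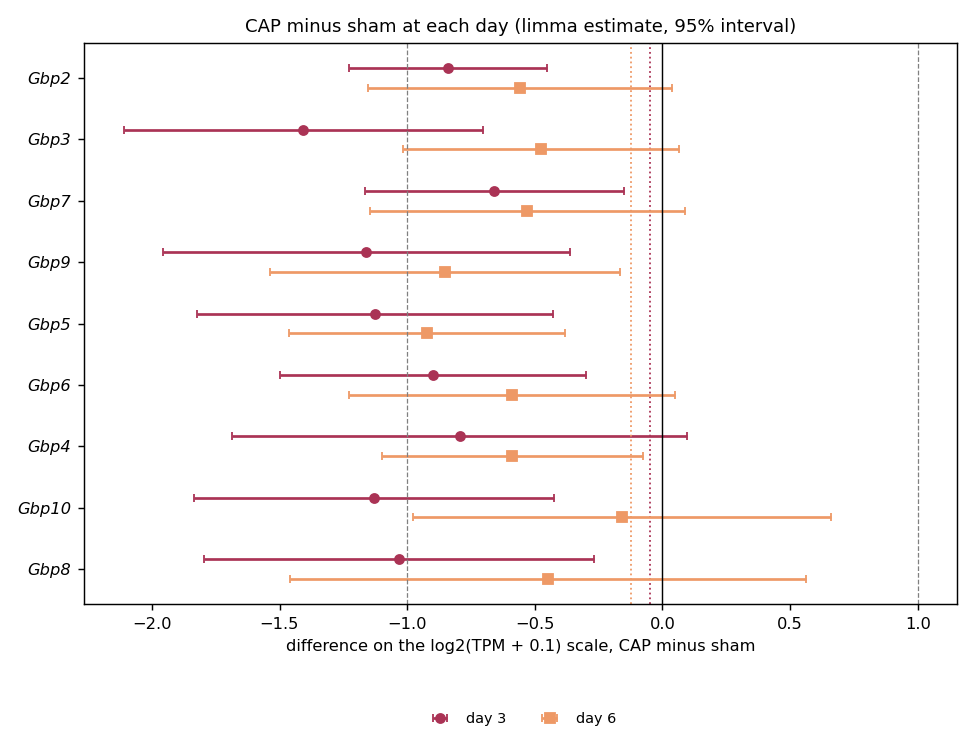
CAP minus sham on the log2(TPM + 0.1) scale (horizontal axis) for the 9 tested members (vertical axis), at day 3 (circles) and day 6 (squares), with 95% intervals from limma; dotted lines mark the median of all genes and dashed lines a 2-fold change. Gbp10 moves from -1.13 at day 3 to -0.16 at day 6 and Gbp3 from -1.41 to -0.47, while Gbp5 and Gbp9 stay nearer to their day 3 values.

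From day 3 to day 6 in the sham group, the Gbp genes differed among themselves in how far their levels moved. Gbp3 went from 32.0, 27.6 and 27.8 TPM to 23.6, 15.2 and 16.8 TPM, with every day 6 library below every day 3 library (log2 difference -0.67, SE 0.17, adjusted p = 0.105). Gbp10 went from 1.84, 2.60 and 1.85 TPM to 0.858, 1.32 and 1.16 TPM, also without overlap, a mean 46.9% lower (log2 difference -0.86, SE 0.27, adjusted p = 0.170). Gbp6 changed by -0.47 (SE 0.18, adjusted p = 0.257), with 1 day 6 library inside the day 3 range. Summed with Gbp10 and Gm43302, it changed by -0.57 (SE 0.11, adjusted p = 0.0537). Gbp2 had its day 6 libraries below those of day 3, but the mean was only 13.0% lower (adjusted p = 0.330). Gbp5 stayed level at 6.74 ± 0.367 and 6.69 ± 0.849 TPM, with a 95% interval of the log2 difference from -0.34 to 0.31. Gbp7, Gbp8 and Gbp9 differed by -0.12, -0.30 and -0.13, and Gbp4 by 0.23 in the other direction, all with overlap. Summed over its locus with Gbp8 and Gbp9, Gbp4 turned to -0.066.

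No member was past the threshold in the sham course, against 3.75% of 18368 genes in either direction. By limma, 3 of 9 (Gbp3, Gbp6 and Gbp10) were lower at an unadjusted p under 0.05, against 7.91% of all genes, and 3 of 9 (Gbp2, Gbp3 and Gbp10) lay wholly below day 3, against 10.6%. Of the genes tested, 2.29% had an adjusted p under 0.05, and no Gbp gene was among them. The members' median was -0.20 and that of all genes 0.00.

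In CAP-treated wounds no such course was measured. The means of 8 of 9 members were higher at day 6 than at day 3 and that of Gbp6 was lower, but each member overlapped between the days, and 57.0% of all genes were lower. Gbp3 gave 17.1, 7.09 and 10.7 TPM at day 3 and 17.0, 10.9 and 12 TPM at day 6, with a log2 difference of 0.26 and a 95% interval from -0.54 to 1.06. Gbp4 had the largest difference, 0.44 (SE 0.38, adjusted p = 0.666). Gbp7 had the smallest, 0.01 (95% interval -0.67 to 0.68). None of 9 members was past the threshold, against 2.79% of 18202 genes in either direction, and by limma none had an unadjusted p under 0.05, against 5.66% of all genes among those higher. The intervals leave room for changes of up to 1.35 on the log2 scale. The sign rested on replicate 1 of day 6 and replicate 2 of day 3: without the former 7 of 9 members were lower at day 6, and without the latter 6 of 9. Scaling by median ratio or by quantiles left 8 of 9 higher, as did leaving out replicate 2 of day 6.

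**Figure D4:**
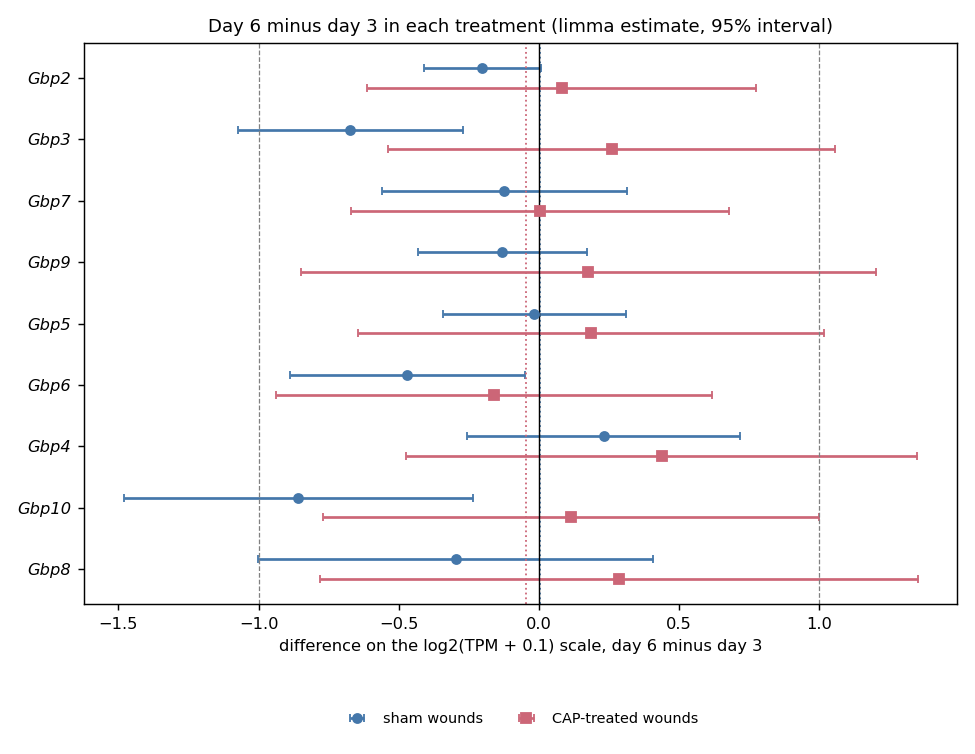
Day 6 minus day 3 on the log2(TPM + 0.1) scale (horizontal axis) for the 9 tested members (vertical axis) in sham wounds (circles) and CAP-treated wounds (squares), with 95% intervals from limma; dotted lines mark the median of all genes and dashed lines a 2-fold change. The sham intervals of Gbp3, Gbp6 and Gbp10 lie below 0, and every CAP interval spans 0.

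Whether the CAP difference itself changed between the days was tested as an interaction over all 12 libraries, which also says whether the course from day 3 to day 6 differed between treatments. Gbp11 reached a mean of 0.3 TPM only in the sham group at day 3 and entered this fit through that group alone, so it is left out of what follows. For the other 9 members the CAP difference was less negative at day 6, while it was more negative in 56.4% of all genes. Leaving out single libraries left 8 or 9 of 9 in that direction. Gbp3 had the only unadjusted p under 0.05. Its CAP difference was 0.93 higher at day 6 on the log2 scale (SE 0.41, 95% interval 0.04 to 1.83, adjusted p = 0.434). Gbp10 followed at 0.97 (SE 0.45, adjusted p = 0.441). The value was 0.20 for Gbp5, 0.31 for Gbp9, 0.28 for Gbp2 and 0.13 for Gbp7, with SEs of 0.32 to 0.48. With single libraries left out, the value ran from -0.11 to 0.59 for Gbp4, 0.068 to 0.57 for Gbp6 and 0.22 to 0.88 for Gbp8. None of the 9 was past the threshold by limma, against 2.18% of 20267 genes among those more positive, and 1 of 9 had an unadjusted p under 0.05, against 5.43%. Gbp10 passed under median-ratio scaling (1.02) and under quantile normalization, where 4.98% and 5.07% of all genes passed in either direction. Leaving out single libraries gave 0 to 2 members past it, where 3.23% to 8.74% of all genes passed in either direction. Gbp3 passed without CAP replicate 1 of day 3 (1.26), sham replicate 1 of day 6 (1.12) or CAP replicate 2 of day 6 (1.06), and Gbp10 without CAP replicate 1 of day 3 (1.11), sham replicate 2 of day 6 (1.10) or CAP replicate 3 of day 6 (1.21).

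Levels of the members varied together across libraries. Over the 12 libraries, Pearson's r of log2(TPM + 0.1) between pairs of the 9 members other than Gbp11 ran from 0.442 to 0.958 with a median of 0.830 over 36 pairs. These are descriptions, since the libraries share group and composition. The highest r was between Gbp2 on chromosome 3 and Gbp9 on chromosome 5. The summed level was lower with CAP in both clusters. Chromosome 3 members held 81.9 ± 7.67 TPM in the sham group and 41.9 ± 12.2 TPM with CAP at day 3, and 65.8 ± 4.65 and 45.7 ± 13.9 TPM at day 6. Chromosome 5 members held 23.7 ± 2.17 and 12.1 ± 5.28 TPM at day 3, and 20.0 ± 1.21 and 13.0 ± 3.78 TPM at day 6. Within the CAP-treated wounds replicate 1 was the highest library in 9 of 10 members at day 3 and in 10 of 10 at day 6. Replicate 2 of day 3 was the lowest of all 12 libraries in 5 members.

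**Figure D5:**
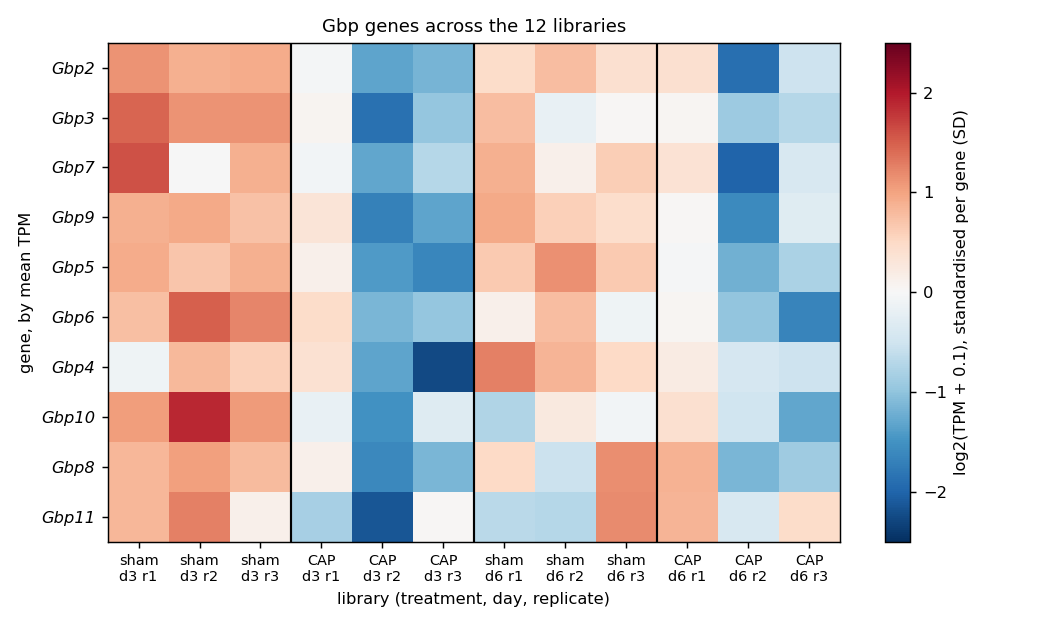
Log2(TPM + 0.1) of each member (vertical axis, by mean TPM) in each of the 12 libraries (horizontal axis), standardised per gene to its SD, with red above and blue below the gene's mean; black lines part the 4 groups. The sham libraries of day 3 are mostly red, replicates 2 and 3 of the CAP-treated wounds mostly blue at each day, and replicate 1 of the CAP-treated wounds lies between them.

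The 5 genes outside the family whose pattern was most like that of the members were Irgm2, Ddx60, Iigp1, Tgtp1 and Ly6e. Likeness was Pearson's r over 12 libraries with the mean standardised level of the members, among 16160 genes, and it was 0.945 for Irgm2, 0.936 for Ddx60, 0.935 for Iigp1, 0.930 for Tgtp1 and 0.925 for Ly6e. It is given as a description, since all of these follow the same 4 groups. Irgm2, Iigp1 and Tgtp1 are immunity-related GTPases, small interferon-inducible GTPases that load onto pathogen vacuoles beside the Gbp proteins. Irgm2 held 24.5 ± 3.99 TPM in the sham group and 12.7 ± 3.13 TPM with CAP at day 3, and 18.1 ± 1.18 and 13.9 ± 4.11 TPM at day 6. Of the 7 immunity-related GTPases listed, 4 were past the threshold at day 3, all lower, against 1.16% of all genes, with a median log2 difference of -1.24. The 4 were Iigp1 (-1.24), Tgtp1 (-1.63), Tgtp2 (-1.59) and Gm12250 (-1.51). At day 6 none of 7 passed, and 3 were lower at an unadjusted p under 0.05 by limma, against 12.5% of all genes, with a median of -0.61. Without CAP replicate 2 of day 6, 1 of 7 was, against 7.81% of all genes, and the median was -0.48. In the sham course none passed, and 5 were lower at an unadjusted p under 0.05 by limma, against 7.91% of all genes. There 1 had an adjusted p under 0.05, against 2.29% of all genes, and the median was -0.56. In the CAP course none passed, none had an unadjusted p under 0.05 by limma, and the median was 0.12.

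Upstream in the pathway, interferon-gamma itself was barely detected. Ifng was between 0 and 0.407 TPM in every library and was not tested. Of the 12 tested genes of interferon-gamma signalling (receptor chains, kinases, regulatory factors and the chemokines Cxcl9 and Cxcl10), 2 were past the threshold and lower at day 3, against 1.16% of all genes, with a median of -0.26. They were Cxcl9 (-1.52) and Cxcl10 (-1.30), which draw T cells into inflamed tissue. By limma, 5 of 12 were lower at an unadjusted p under 0.05 at day 3, against 5.14% of all genes. At day 6 it was also 5 of 12, against 12.5%. There 11 of 12 were lower in sign, against 65.7% of all genes, with a median of -0.41. Cxcl10 alone passed the threshold at day 6 (-1.75), where 2.34% of all genes passed and were lower. Without CAP replicate 2 it no longer passed (-1.22), and 2 of 12 were lower at that p by limma, against 7.81% of all genes. None passed in either course. In the sham course 2 were lower at an unadjusted p under 0.05 by limma, against 7.91%. In the CAP course 1 (Cxcl9) was higher, against 5.66%.

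Genes of the type I interferon pathway had a different course in the sham group. Of 12 tested, 6 were past the threshold and lower at day 6 than at day 3, against 1.61% of all genes. An adjusted p under 0.05 by limma was found for 7, against 2.29% of all genes. The median log2 difference was -1.17, beside -0.20 for the Gbp genes. Irf7, the regulatory factor that amplifies type I interferon, went from 195 ± 9.75 to 41.1 ± 4.85 TPM (log2 difference -2.24, SE 0.10, adjusted p = 0.00133). Between the treatments, 6 of 12 were past the threshold and lower at day 3, against 1.16% of all genes, with a median of -1.12. At day 6 it was 2 of 12 (Isg15, -1.05, and Rsad2, -1.02), against 2.34%, with a median of -0.65. In the CAP course Rsad2 alone passed (-1.06), against 1.52% of all genes among those lower, with a median of -0.47. Without CAP replicate 2 of day 6, none of the 12 passed at day 6, with a median of -0.52, or in the CAP course, with a median of -0.49. These comparisons share libraries with those of the Gbp genes, and the difference between the lists was not tested.

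Partners of the Gbp proteins behaved less uniformly. Of 10 inflammasome and cell-death genes, only Zbp1, a sensor of Z-form nucleic acid, was past the threshold at day 3 (-1.68), against 1.16% of all genes among those lower. At day 6 only Il18, an inflammasome substrate, passed, in the other direction (1.09), against 1.46% of all genes. Yet 8 of 10 were lower in sign at day 6, against 65.7% of all genes, with a median of -0.52. By limma, 2 were lower at an unadjusted p under 0.05, against 12.5% of all genes, and 2 higher, against 6.67%. Il18 held 51.7 ± 3.63 TPM in the sham group and 113 ± 31.9 TPM with CAP at day 6. In the sham course Zbp1 passed and was lower (-1.38), against 1.61% of all genes. Nlrp3 (1.54) and Il1b (1.45) passed and were higher there, against 2.13%. In the CAP course Il18 passed and was higher (1.03), against 1.27%. Without CAP replicate 2 of day 6, Il18 no longer passed at day 6 (0.90) or in the CAP course (0.84). In that setting the median of the list at day 6 was -0.31. None of the 5 genes listed for protein prenylation and processing passed in any of the 4 comparisons, and none had an unadjusted p under 0.05 by limma. Their summed level stayed between 144 and 163 TPM in all 12 libraries. None of the 6 conjugation genes of autophagy that direct GTPases to vacuoles passed either. By limma 1 of 6, Gabarapl2, was higher with CAP at day 6 (0.47) at an unadjusted p under 0.05, against 6.67% of all genes. It was also higher at that p in the CAP course (0.45), against 5.66%. Atg5 alone was higher at that p in the sham course (0.26), against 8.05%. Without CAP replicate 2 of day 6, Gabarapl2 was at 0.30 and 0.28, with no p under 0.05 on the list in the CAP course.

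Cell type markers moved with the groups, and their part in the Gbp results was not tested. At day 6, all 10 monocyte and macrophage markers were lower with CAP in sign and 2 of them past the threshold, against 2.34% of all genes. Their summed level was 1846 to 2127 TPM in the sham group and 866 to 1886 TPM with CAP. CAP replicates 1, 2 and 3 held 1234, 866 and 1886 TPM of these markers, beside summed Gbp levels of 77.3, 42.3 and 56.4 TPM. Replicate 2 was the lowest in both, while replicate 3 was the highest in the markers and replicate 1 in the Gbp genes. Endothelial markers were lower in 7 of 7, with 3 past the threshold and sums of 255 to 349 against 82.1 to 215 TPM. Keratinocyte markers were higher in 5 of 5, with 2 past the threshold, against 1.46% of all genes, and sums of 24690 to 27717 against 42590 to 89956 TPM. Neutrophil markers were lower in 6 of 6 tested with 1 past the threshold, and their sums overlapped. Without CAP replicate 2, none of the macrophage or endothelial markers passed, while 2 keratinocyte markers and 1 neutrophil marker did. In that setting 0.931% of all genes passed and were lower, and 1.69% passed in either direction.

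At day 3 all 5 erythroid markers were past the threshold and higher with CAP, against 0.426% of all genes, with sums of 514 to 753 TPM in the sham group and 2356 to 2803 TPM with CAP. Macrophage markers went both ways at that day, with 6 of 10 lower and 4 higher in sign, 3 past the threshold and lower, against 1.16% of all genes, and none past it and higher. Their sums overlapped, at 1525 to 1981 in the sham group and 1493 to 2878 TPM with CAP. Of the 10 tested markers of T and NK cells, 4 were past the threshold and lower, with sums of 40.6 to 51.4 against 28.0 to 38.2 TPM. At day 6 the T and NK cell sums overlapped, at 59.9 to 105 and 73.6 to 90.9 TPM. In the sham course 5 of 7 endothelial markers were past the threshold and higher at day 6, against 2.13% of all genes, with a median of 1.33 over the list. An adjusted p under 0.05 by limma was found for 5 of the 7, not all the same genes, against 2.29% of all genes. All 5 erythroid markers were higher there too, each with an adjusted p under 0.05, with a median of 2.38. In the CAP course 5 of 10 tested T and NK cell markers passed and were higher, against 1.27% of all genes, and 4 did without CAP replicate 2 of day 6. Over the same course 2 macrophage and 2 neutrophil markers passed and were lower, against 1.52%, and 1 macrophage marker passed and was higher. Without that library 1 of each type passed and was lower, against 0.818% of all genes, and none was higher. Every defining marker of macrophages on the list was detected in each group.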

How the data were processed

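RNA libraries were prepared by the authors with the SureSelect XT HS2 mRNA kit. Per the labels the reads were converted with bcl2fastq and trimmed with Trimmomatic 0.36 and the build was mm10, and the authors estimated expression with StringTie. Aligner and annotation release: not given in the sources used here. The deposited tables, 1 per library, hold TPM for 55487 genes, with 0.0001 in place of 0 and 0 other columns of per-sample values. TPM keeps no read depth. GENCODE M21 holds 55141 of these genes, 54814 at the deposited coordinates.

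Values were put on the log2(TPM + 0.1) scale and tested across all genes with limma 3.58.1 (R 4.3.3) with an intensity trend. Genes needed a mean of 0.3 TPM in both groups compared, or in at least 1 of 4 groups for the interaction. Adjustment was by Benjamini-Hochberg over all tested genes. Exact permutation tests were 2-sided. The fit was checked on simulated data. Shared sequence was counted in 31-base stretches of GENCODE M21 transcripts. Python 3.11.15 with numpy 2.4.6, pandas 2.3.3, scipy 1.17.1 and matplotlib 3.10.9 did the rest. The members, gene lists and tests were chosen with earlier results of these data known. The text names all members, the relatives Gbp2b and Gm43302, up to 4 members of each other list with the smallest p past the threshold, and the 5 genes most like the family. Gabarapl2 and Atg5 were named after their values were seen.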

Additional observations from a re-analysis of the deposited data

Results flagged for a closer look

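The CAP difference of Gbp3 changed between the days by 0.93 on the log2 scale (SE 0.41, adjusted p = 0.434 by limma), from -1.41 at day 3 to -0.47 at day 6. It was marked by this test of the difference itself, which failed the correction over all genes. The CAP difference was less negative at day 6 in the 9 members other than Gbp11, which is not counted because it entered the fit only through the sham group at day 3.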

How the results depend on the processing

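With limma, the number of members past the threshold at day 3 was 5, where 1.16% of all genes passed and were lower. It was 2 with a pseudocount of 1 TPM, where 0.606% did. It was 4 under median-ratio scaling and 4 under quantile normalization, where 0.993% and 0.873% did. Leaving out each library in turn gave 1 to 8 at day 3, where 0.813% to 1.97% of all genes passed and were lower. It gave 0 to 2 at day 6, where 0.931% to 5.65% did. For the difference of the CAP effects between the days it gave 0 to 2, where 3.23% to 8.74% passed in either direction. That last count was 0 with all libraries, where 4.90% of all genes passed in either direction. It was 1 under median-ratio scaling, where 4.98% did, and 2 under quantile normalization, where 5.07% did. The second was Gbp11, which entered that fit only through the sham group at day 3. In the sham and the CAP course the number of members past the threshold was 0 in all alternatives run. Under quantile normalization Gbp10 at day 6 turned to 0.0033. With overlapping genes summed, chosen after seeing the data, Gbp4 in the sham course turned to -0.066 and Gbp6 in the CAP course to 0.10. Leaving out single libraries turned the sign of small differences, which ranged as follows on the log2 scale. At day 6 Gbp10 ran from -0.40 to 0.078. In the sham course Gbp5 ran from -0.12 to 0.035 and Gbp7 from -0.30 to 0.042. In the CAP course the ranges were -0.16 to 0.36 for Gbp2, -0.048 to 0.58 for Gbp3, -0.015 to 0.53 for Gbp5, -0.40 to 0.10 for Gbp6, -0.22 to 0.29 for Gbp7, -0.082 to 0.58 for Gbp8, -0.087 to 0.58 for Gbp9 and -0.13 to 0.35 for Gbp10. For the difference between the days Gbp4 ran from -0.11 to 0.59 and Gbp7 from -0.095 to 0.41. The cause of these changes was not tested. Over all genes, a pseudocount of 1 TPM lowered the number past the threshold from 290 to 154 at day 3, from 697 to 385 at day 6, from 688 to 405 in the sham course, from 507 to 299 in the CAP course and from 994 to 580 for the difference. Without a filter on low values it was 568 at day 3 and 1156 in the sham course.

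The labels do not say whether a replicate number marks a pairing or a batch. Deviations of same-numbered libraries correlated at 0.03, 0.12 and 0.11 at day 6 and at -0.17, 0.03 and 0.02 at day 3. They correlated at 0.026 to 0.043 in the sham course and at -0.0014 to 0.29 in the CAP course. As a hint from the data, 6 of 6 libraries were closest to their own number at day 6 and in the sham course. It was 2 of 6 at day 3 and in the CAP course. Each same-numbered pair was counted from both of its libraries, so the 6 are not separate observations. A fit with the replicate number as a block left 5 members past the threshold at day 3, where 1.16% of all genes passed and were lower. It left 0 in the other comparisons. At day 6 it moved the members at an unadjusted p under 0.05 by limma from 3 to 5. The share of all genes lower at that p rose from 12.5% to 15.2%.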
